A study of Mus musculus with 7 samples.

Results

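The genes described here encode the contractile apparatus of smooth muscle. They are 10 named genes (Acta2, Actg2, Myh11, Tagln, Des, Cnn1, Mylk, Myl9, Lmod1 and Synm) out of the 38293 genes in the deposited count table, and a gene was taken when its name in the table matched 1 of these names. Each of the 10 names matched 1 gene. RNA had been sequenced from ileal scrapings of 8-week-old male C57BL/6NRJ mice, with 4 mice on the normal cystine diet (normal cys) and 3 on the low cystine diet (low cys). Every mouse spent 1 week on the control version of a purified, low calcium AIN93G diet with 40% of its energy from fat. Then followed 2 weeks on the assigned diet, which held 0.38% total cystine for normal cys and 0.08% for low cys. Alanine replaced the cystine left out of the low cys diet. The normal cys libraries are called X17SI4, X32SI4, SI9 and X1SI4 (counted here as replicates 1 to 4) and the low cys libraries X23SI4, X26SI4 and X10SI4 (replicates 1 to 3), and each is named as in the labels. Per the labels and the paper each library came from a separate mouse, so that p-values reflect the spread between mice. Per the methods, scraping took the epithelium with its lamina propria and left the muscle coat behind, and how much muscle each scraping held is not given. With 3 or 4 males per diet, the samples are a model of the mucosa on these diets and only a narrow one of its smooth muscle.

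Smooth muscle shortens when myosin filaments pull on actin filaments, after a rise in calcium has activated a kinase that phosphorylates the myosin light chain. In the gut wall most smooth muscle lies in the outer muscle coat and in the thin muscularis mucosae, while single smooth muscle strands run up the core of each villus within the lamina propria and further smooth muscle surrounds the arteries. The same genes, and above all those of the actin and light chain, are also expressed to some degree by pericytes and myofibroblasts.

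The libraries held between 14888760 and 22412703 counts, and X26SI4 held 15708368. Expression is given as CPM, each count relative to its library total after scaling by TMM factors, which ranged from 0.9004 in SI9 to 1.12 in X23SI4. Apart from Mylk, the contractile genes were near the lower limit of what was measured. Their raw counts per library ran from 0 to 172, and a count of 0 allows an expression of up to 0.157 CPM in X17SI4 (3 counts, counting error only). The filter on low counts was passed by 8 of the 10 genes, and Lmod1 and Synm did not pass it with all 7 libraries. The members lie on 7 chromosomes of GRCm38, and each shared at most 0.340% of its 50-base stretches with transcripts of another gene, so that reads were rarely ambiguous between relatives.

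Acta2 and Actg2 encode the actins that form the thin filaments of smooth muscle, with Acta2 the main form in vessels and Actg2 the main form in the visceral wall. Acta2 (chromosome 19, 34241090 to 34255336) was expressed at 2.87, 1.32, 0.841 and 0.573 CPM in the normal cys libraries X17SI4, X32SI4, SI9 and X1SI4, and at 1.47, 7.06 and 2.96 CPM in the low cys libraries X23SI4, X26SI4 and X10SI4. X26SI4 was the highest of all and X10SI4 was just above X17SI4, while X23SI4 lay among the normal cys libraries, so the diets overlapped. The log2 fold change of Acta2, low cys over normal cys, was 1.44 (SE 0.64), and 0.67 (SE 0.64) when X26SI4 was left out. For Actg2 (chromosome 6, 83512905 to 83536265) the same libraries, in the same order, gave 1.25, 0.590, 0.263 and 0.191 CPM on the normal and 0.408, 5.62 and 1.55 CPM on the low cystine diet. Here too X26SI4 was far above the others and X23SI4 lay inside the normal cys range. The log2 fold change of Actg2 was 2.11 (SE 0.88), and 0.75 (SE 0.83) without X26SI4. Within a library, the ratio of Actg2 to Acta2 counts was 0.436, 0.448, 0.313 and 0.333 in the normal cys libraries and 0.278, 0.796 and 0.522 in the low cys libraries. X26SI4 thus had the highest share of the visceral actin as well as the highest level of each actin, although the ratio of X1SI4 rests on 4 and 12 counts. Acta1, the skeletal muscle actin, had another order, with 7.21, 3.32, 5.89 and 8.84 CPM in the normal cys and 1.59, 6.99953 and 8.64 CPM in the low cys libraries, where X1SI4 was the highest and X23SI4 the lowest.

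The thick filament and its switch are represented by Myh11, the smooth muscle myosin heavy chain, by Myl9, the regulatory light chain, and by Mylk, the kinase that phosphorylates that light chain. Myh11 (chromosome 16, 14194527 to 14291408) was expressed at 2.61, 1.86, 1.05 and 0.478 CPM on the normal and 0.612, 10.7 and 3.16 CPM on the low cystine diet. Its level in X26SI4 was 17.6 times that in X23SI4, a mouse on the same diet, and X23SI4 was lower than every normal cys library except X1SI4. The log2 fold change of Myh11 was 1.67 (SE 0.85) with all libraries and 0.32 (SE 0.78) without X26SI4. Myl9 (chromosome 2, 156775420 to 156781658) had 2.04, 0.863, 0.526 and 0.669 CPM in the normal cys and 0.939, 7.25 and 1.74 CPM in the low cys libraries. Only X26SI4 exceeded the normal cys range, whose highest library, X17SI4, was above X10SI4. Myl9 had a log2 fold change of 1.68 (SE 0.72), and 0.39 (SE 0.62) without X26SI4.

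Mylk (chromosome 16, 34745210 to 35002420) stood apart from the other contractile genes. Its level was 212, 174, 183 and 196 CPM in the normal cys libraries and 164, 226 and 187 CPM in the low cys libraries, with 2896 to 4108 raw counts. The libraries lay within a factor of 1.38 of each other, X26SI4 was again the highest and X23SI4 the lowest, and the diets overlapped throughout. The means were 191 ± 16.8 CPM (SD, n = 4) on the normal and 192 ± 31.4 CPM (SD, n = 3) for low cys. This corresponds to a log2 fold change of 0.01 (SE 0.15), whose sign changed with the processing. Per kilobase of exon, Mylk reached 18.9 CPM, which was 13.8 times the level of Acta2. The gene also encodes a long kinase found in cells outside muscle, among them the intestinal epithelium, and counts per gene do not separate its products.

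Tagln, Cnn1 and Lmod1 encode proteins that sit on the actin filament. Transgelin (Tagln, chromosome 9, 45929628 to 45936058), an actin cross-linking protein of early and mature smooth muscle, was expressed at 2.14, 1.998, 1.37 and 0.669 CPM on the normal and 1.39, 5.44 and 2.38 CPM on the low cystine diet. Its range was the narrowest of the low-level genes tested, with X26SI4 8.13 times above X1SI4, and its exons overlap those of Pcsk7 on the opposite strand over 65 bases, a gene with 1146 to 1952 counts in a library, so that the count of Tagln is uncertain if strand was not used. For Tagln the log2 fold change was 0.98 (SE 0.53), and 0.30 (SE 0.51) without X26SI4. Calponin (Cnn1, chromosome 9, 22099281 to 22109630), which damps the myosin ATPase and marks differentiated smooth muscle, had 1.15, 0.4996, 0.210 and 0.334 CPM in the normal cys and 0.204, 2.56 and 1.42 CPM in the low cys libraries. X23SI4 was the lowest library for Cnn1, slightly under SI9, so that the low cys mice spanned the whole range of the data. For Cnn1 the log2 fold change was 1.31 (SE 0.79), and 0.52 (SE 0.89) without X26SI4. Leiomodin (Lmod1, chromosome 1, 135324807 to 135368065), which nucleates actin filaments in smooth muscle, had raw counts of 1, 1, 5 and 1 in the normal cys and 3, 8 and 2 in the low cys libraries, or 0.0523, 0.0454, 0.263 and 0.0478 CPM against 0.122, 0.499967 and 0.129 CPM. X26SI4 was the highest here as well. Without the filter on low counts, the log2 fold change of Lmod1 was 1.22 (SE 0.95).

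Desmin and synemin form the intermediate filaments that tie the contractile units to dense bodies and to the membrane. Des (chromosome 1, 75360329 to 75368579) was expressed at 2.04, 1.04, 0.841 and 0.0955 CPM on the normal and 1.55, 6.81 and 2.90 CPM on the low cystine diet. X1SI4, with 2 counts, lay far under the other mice, X26SI4 and X10SI4 were above all normal cys libraries, and X23SI4 was between X17SI4 and X32SI4. Its exons overlap the gene Gm15179 on the opposite strand over 220 bases, and that gene had 0 counts. The log2 fold change of Des was 1.89 (SE 0.75), and without X26SI4, where it was the largest of the 8, 1.16 (SE 0.80). Synm (chromosome 7, 67730161 to 67759742) had raw counts of 0, 8, 5 and 3 in the normal cys and 2, 27 and 9 in the low cys libraries. As CPM these were 0, 0.363, 0.263 and 0.143 for normal cys and 0.0816, 1.69 and 0.580 for low cys. X26SI4 and X10SI4 were above every normal cys library and X23SI4 was below X32SI4, SI9 and X1SI4. In X17SI4, where the actins were highest among the normal cys libraries, no Synm read was counted. Without the filter, the log2 fold change of Synm was 1.92 (SE 0.95).

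**Figure D1:**
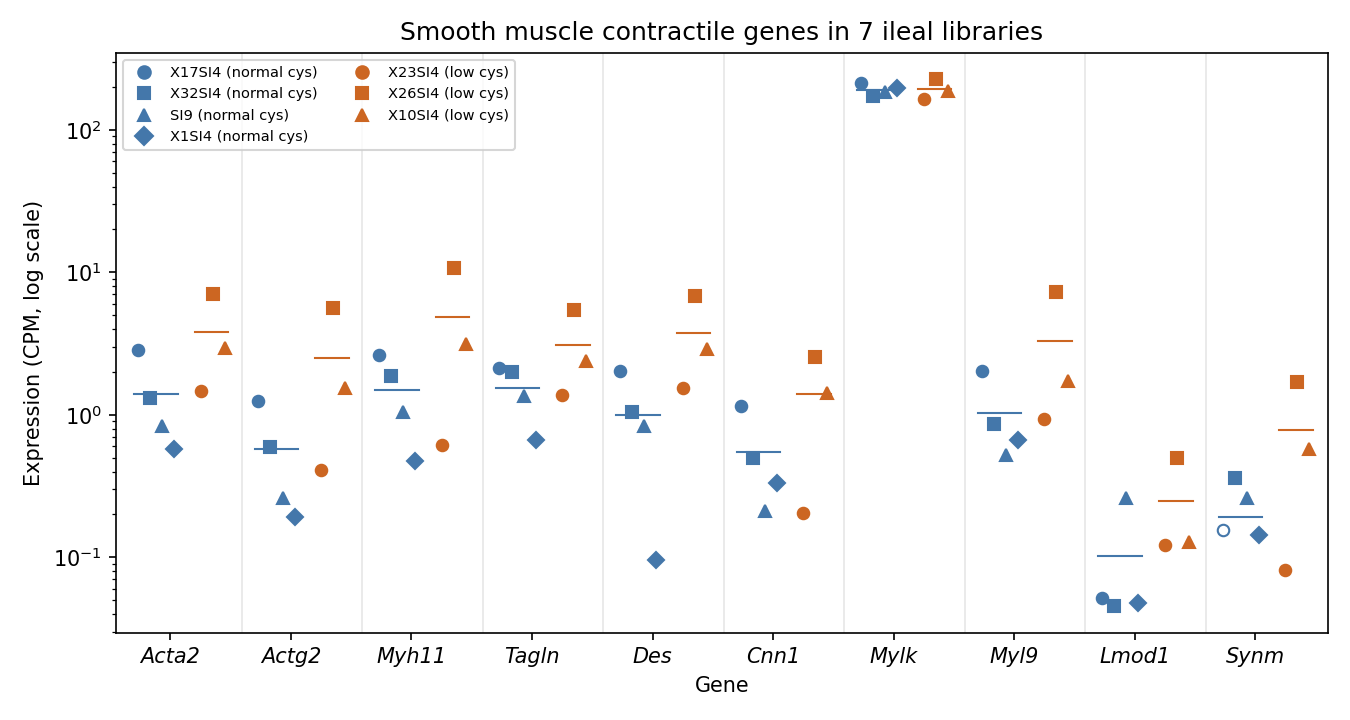
Expression of the 10 smooth muscle contractile genes in each library, in CPM on a log scale, with 1 symbol per mouse, blue for normal cys (n = 4), orange for low cys (n = 3) and a horizontal line at each diet's mean. The open symbol for Synm marks a count of 0, drawn at the level of 3 counts. X26SI4 is the highest library for all 10 genes, and X23SI4 lies within or below the normal cys values.

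Between the diets, 0 of the 8 contractile genes tested had an adjusted p-value under 0.05 in edgeR (Benjamini-Hochberg over 14869 genes), where 0% of all genes tested did. The adjusted p in edgeR (Benjamini-Hochberg) was 0.994 for Mylk, and it was 0.794 for the other 7 genes, of which Actg2, with a log2 fold change of 2.11, had the largest difference and 2 of 3 low cys libraries above the normal cys range. With DESeq2, 0 of the 10 genes were called, against 0.0939% of the 17032 genes that received an adjusted p-value, and limma-voom called 0 of them and 0 genes in all. At an unadjusted p-value under 0.05, edgeR gave 3 of the contractile genes, all higher on the low cystine diet, where 2.66% of all genes tested passed in that direction. By the quasi-likelihood F-test of edgeR, the unadjusted p was 0.0335 for Des, 0.0398 for Actg2 and 0.0465 for Myl9. DESeq2 gave 5 (Acta2 and Myh11 besides these), where 2% of all its genes passed in that direction, and limma-voom gave 1 (Des), where 3.5% did. The count of contractile genes moved with single mice, and is given here with the share of all genes that passed as higher under the same setting. It was 0 without X26SI4 (3.47%), X32SI4 (3.02%) or SI9 (1.44%), 1 without X1SI4 (3.42%) and 3 without X10SI4 (1.54%). It was 5 without X17SI4 (6.3%) and, of the same 8 genes, 7 without X23SI4 (1.16%). Synm made this 8, but it passed the filter only there, where its higher counts in X26SI4 and X10SI4 carried it. No contractile gene had all low cys libraries above all normal cys libraries (0 of 10, against 3.32% of the genes tested). This was also true without X26SI4 (11.6% of all genes under that setting), X10SI4 (5.81%), X32SI4 (6.73%) or X1SI4 (6.6%). With fewer libraries to separate, 7 of 10 did so without X23SI4 (5.06%), 3 without X17SI4 (8.58%) and 1 without SI9 (4.16%).

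The median log2 fold change of the 8 genes was 1.56, and 0.46 without X26SI4, while the median over all genes tested was 0.01 and 0.02, respectively. Summed over the 10 genes, expression was 226, 182, 189 and 199 CPM in the normal cys libraries and 171, 274 and 203 CPM in the low cys libraries, of which Mylk supplied 92.9%. The means of 199 ± 19.5 CPM (SD, n = 4) and 216 ± 52.6 CPM (SD, n = 3) differed by 16.9 CPM, which is less than the SD on either diet, and by -8.96 CPM when X26SI4 was left out, 40.1 CPM without X23SI4 and 26.3 CPM without X17SI4. Without Mylk, a sum chosen after its level had been seen, the other 9 genes gave 14.2, 8.58, 5.63 and 3.20 CPM for normal cys and 6.77, 47.7 and 16.8 CPM for low cys. X26SI4 alone was several times above every other mouse, X10SI4 was slightly above X17SI4, and X23SI4 ranked between SI9 and X32SI4. The means were 7.89 ± 4.72 CPM (SD, n = 4) and 23.8 ± 21.3 CPM (SD, n = 3), so that the SD on the low cystine diet was about as large as the mean. In bulk tissue, fewer cells of a type and less RNA per cell cannot be told apart. Even in X26SI4, these 9 genes made up 0.00486% of all counts, and in X1SI4 0.000299%.

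**Figure D2:**
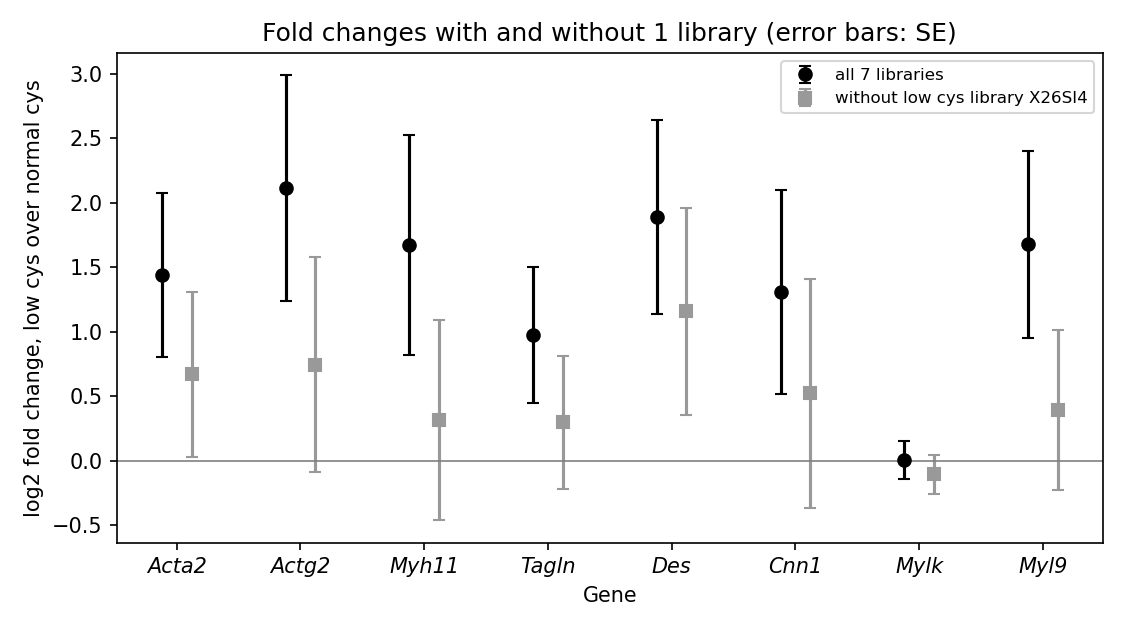
Log2 fold changes of the 8 tested contractile genes, low cys over normal cys, from edgeR with all 7 libraries (black circles) and without X26SI4 (grey squares), with SE as error bars. Without that library the estimates of the 7 genes other than Mylk lie between 0.30 and 1.16.

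The mice on the same diet differed strongly in these genes. The within-diet SD of log2 CPM had a median of 1.16 over the 8 tested genes, against 0.286 over all genes tested. For 7 of the 8 it lay above the 90th percentile of all genes, from 93.2 for Tagln to 99.4 for Myh11, while Mylk was at 22.8. The biological coefficient of variation, with that of genes of similar abundance in brackets, was 75.6% for Actg2 (39.97%), 74.5% for Myh11 (34.8%), 68.2% for Cnn1 (41.3%) and 68.0% for Des (36.9%). It was 63.9% for Myl9 (37.6%), 57.3% for Acta2 (36.0%) and 47.8% for Tagln (36.7%), a smaller excess, and for Mylk, at 16.5% (20.6%), it was below that of similar genes. The order of the mice was shared. On the low cystine diet, X26SI4 was above X10SI4 and X10SI4 above X23SI4 in 10 of 10 genes, an order that 23.4% of all genes tested followed and that was counted after it had been seen. X26SI4 was the highest of all libraries in 10 of 10 genes, and in 8.53% of all genes tested. X10SI4 exceeded every normal cys library in 7 of 10 genes, and in 15.6% of all genes tested, but X23SI4 did so in 0 of 10, and in 23.1% of all genes tested. On the normal cystine diet, X17SI4 was the highest library in 8 of 10 genes (26.4% of all genes tested) and X1SI4 the lowest in 5 of 10 (31.5% of all genes tested).

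As a description of how closely the genes moved together, each tested gene was correlated over the 7 libraries with the mean standardised log2 CPM of the other tested members. Pearson's r was 0.994 for Actg2, 0.970 for Acta2, 0.965 for Myh11, 0.962 for Myl9, 0.933 for Tagln, 0.929 for Cnn1, 0.842 for Des and 0.637 for Mylk. Mylk was the gene least like the rest, and Actg2 the closest to the common pattern. The points share libraries and scaling, and X26SI4 is the most distant of them. Without it (6 libraries) r was 0.983 for Actg2, 0.740 for Des and 0.254 for Mylk, and without X1SI4 as well (5 libraries) it was 0.975, 0.797 and 0.643. With these 5 libraries Cnn1, at 0.98, was slightly closer to the common pattern than Actg2.

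Of all other genes tested, those whose log2 CPM was most like the mean pattern of the members over the 7 libraries were Igkv10-94 (Pearson's r = 0.978), Tmem138, Tns1 (r = 0.960), Armc2, Tbcc, Atp7a, Cavin1, Dixdc1, Ighv1-82 and Rgs5 (r = 0.932). Tns1 encodes tensin, which couples actin to integrins. Its expression was 1.25, 1.04, 0.578 and 0.382 CPM in the normal cys and 0.735, 3.25 and 2.06 CPM in the low cys libraries, the same order of mice as for Acta2 among the low cys libraries. Rgs5, a regulator of G protein signalling found in pericytes and arterial smooth muscle, had 1.05, 0.999, 0.368 and 0.191 CPM and 0.816, 4.87 and 1.10 CPM, with X26SI4 again the highest. Cavin1 belongs to the caveolae that are abundant in the smooth muscle membrane, and ranged from 1.31 CPM in X23SI4 to 3.25 CPM in X26SI4. Igkv10-94 and Ighv1-82 encode immunoglobulin variable regions made by plasma cells. For Igkv10-94 the libraries gave 2.25, 1.499, 0.841 and 0.669 CPM on the normal and 1.43, 6.87 and 2.51 CPM on the low cystine diet, but 46.6% of its 50-base stretches occur in other genes, so its count is uncertain, as is that of Ighv1-82 (14.8%). The remaining genes, Tmem138, Armc2, Tbcc, Atp7a and Dixdc1, were in none of the gene lists used here, and with 7 libraries many profiles can match by coincidence.

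Per kilobase of exon and averaged over the 7 libraries, the smooth muscle actins and Myh11 were less abundant than most of their non-muscle counterparts. The actin Actb, the most abundant of the 8 genes in that list, reached 1702 CPM per kilobase, 1241 times the level of Acta2 (1.37). Actg1 stood at 550.4, against 0.903 for Actg2, although 37.4% of the 50-base stretches of Actg1 occur in other genes. The non-muscle myosin Myh14 had 136 and Myh9 25.3 CPM per kilobase, against 0.442 for Myh11, whereas Myh10, at 0.138, was below Myh11. Among the contractile genes the order per kilobase was Mylk (18.9), Myl9 (1.72), Tagln (1.39), Acta2, Actg2, Des (0.582), Myh11, Cnn1 (0.385), Synm (0.0566) and Lmod1 (0.0420), as means over 7 libraries between which each low-level gene varied several-fold. Neighbours in this order changed places within a diet. By the normal cys means alone, Tagln was above Myl9, Cnn1 above Myh11 and Lmod1 above Synm. The 8 counterpart genes did not follow the contractile genes. Their estimates were lower in the low cys mice for 7 of the 8 and higher for 1, with 0 at an unadjusted p-value under 0.05 in edgeR, and X26SI4 was the highest library for 1 of 8 (8.53% of all genes tested), Myh10 (log2 fold change 0.59, SE 0.42). Their summed level was 8254, 9608, 10534 and 7782 CPM in the normal cys and 6938, 8165 and 7827 CPM in the low cys libraries, where X23SI4 was the lowest and X26SI4 within the normal cys range.

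Other genes of the contractile pathway were examined in 5 further lists, and in each list 0 genes had an adjusted p-value under 0.05 in edgeR. Of 12 further filament proteins 10 were tested, and 2, Cald1 and Tpm2, were higher on the low cystine diet at an unadjusted p-value under 0.05 and 0 lower, where 2.66% of all genes tested were higher and 2.83% lower. Without X26SI4 neither of these 2 passed. Cald1, which encodes the actin-binding caldesmon, had 1.78, 1.36, 0.999 and 0.526 CPM in the normal cys and 2.24, 4.69 and 2.13 CPM in the low cys libraries. Here all low cys libraries were above all normal cys libraries, X23SI4 included, and the log2 fold change was 1.36 (SE 0.45), or 0.93 (SE 0.48) without X26SI4. Tpm2, a tropomyosin of muscle, had 0.941, 1.998, 1.16 and 0.430 CPM and 1.27, 6.25 and 2.84 CPM, the same order of the low cys mice as in the contractile genes. Its log2 fold change was 1.59 (SE 0.60), and 0.86 without X26SI4. Of the other tropomyosins in this list, Tpm1 had a log2 fold change of -0.19 (SE 0.13) and Tpm4 of -0.04 (SE 0.14). Smtn, which encodes smoothelin, differed little, with 8.44 ± 2.04 CPM (SD, n = 4) and 9.71 ± 2.20 CPM (SD, n = 3). The most abundant gene of the list per kilobase was Myl6, the essential light chain of smooth and non-muscle myosin, with 674 ± 41.9 CPM (SD, n = 4) against 580.4 ± 28.4 CPM (SD, n = 3). Myl6 also had the smallest p-value of the lower genes (unadjusted p = 0.129 in edgeR).

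Of 22 genes that control contraction, such as those of the myosin phosphatase and of calcium channels, 17 were tested, of which 8 had a higher and 9 a lower estimate, with 0 at an unadjusted p-value under 0.05 in either direction, and 1 without X26SI4 (Ppp1r12a, lower, log2 fold change -0.33, against -0.10 with all libraries). Atp2a2, the calcium pump of the sarcoplasmic reticulum, had the smallest p of the higher genes (log2 fold change 0.22, SE 0.17). Of 30 dense body and membrane genes 21 were tested, with 15 higher and 6 lower estimates, and 2, Dmd and Tns1, were higher at an unadjusted p-value under 0.05 (2.66% of all genes tested). Neither passed without X26SI4, where the log2 fold change was 0.73 for Dmd and 0.77 for Tns1, against 0.66 and 1.28 with all libraries. Dmd, which encodes dystrophin, had 13.9, 6.45, 7.47 and 9.70 CPM in the normal cys and 18.7, 13.6 and 11.9 CPM in the low cys libraries, with X23SI4 the highest. Svil had the smallest p of the lower genes (log2 fold change -0.34, SE 0.18), and Itgb1 was the most abundant gene of the list, with 196 ± 16.3 CPM (SD, n = 4) and 207 ± 17.7 CPM (SD, n = 3). Vinculin (Vcl) had a log2 fold change of 0.02 (SE 0.14). Filamin (Flna) had 11.5, 14.6, 9.36 and 5.73 CPM and 10.04, 21.3 and 10.6 CPM, with X26SI4 the highest, X1SI4 the lowest and the other 5 mice from 9.36 to 14.6. X26SI4 was the highest library for 5 of the 21 genes tested, and for 8.53% of all genes tested. With the untested genes of the list included, it was the highest for 11 of 30.

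The transcription of contractile genes is driven by the factor Srf with its muscle cofactor myocardin (Myocd). Srf was expressed at 53.5, 65.4, 59.2 and 50.5 CPM in the normal cys and 47.3, 53.6 and 49.0 CPM in the low cys libraries, with X26SI4 amid the other mice and a log2 fold change of -0.19 (SE 0.13). Myocd had 3 counts in X17SI4 and 0 in the other 6 libraries, which include X26SI4, and it was not tested. Of 17 transcription regulators 11 were tested, with 4 higher and 7 lower estimates, and 1, Gata6, was lower at an unadjusted p-value under 0.05 (2.83% of all genes tested), as it was without X26SI4, where Klf4 was lower as well (log2 fold change -0.65, against -0.47 with all libraries). Gata6 had 52.5, 49.4, 60.8 and 50.6 CPM in the normal cys and 36.8, 46.1 and 42.5 CPM in the low cys libraries. It was lower in all low cys libraries than in all normal cys libraries (log2 fold change -0.35, SE 0.13), and it is also expressed by the intestinal epithelium. Klf4 was the most abundant of this list, Tead1 had the smallest p of the higher genes (log2 fold change 0.63, SE 0.38), and Barx1 was at 0 in all libraries. Of 17 receptors for contractile signals 4 were tested, with 2 higher and 2 lower estimates and 0 at an unadjusted p-value under 0.05. P2ry1, a purine receptor, was the most abundant (log2 fold change -0.31, SE 0.34) and had the smallest p of the lower genes, and P2rx1 had the smallest p of the higher genes (log2 fold change 0.95, SE 0.43). Tacr2 and Adra1a were at 0 in all libraries, and the muscarinic receptor Chrm2 had at most 8 counts in a library. Summed levels in normal cys and low cys libraries were 1141, 1347, 1338 and 1378 against 1078, 1147 and 1213 CPM for the filament proteins. They were 629.7, 576, 587 and 671 against 599, 682 and 596 CPM for the dense body and membrane genes. For the transcription regulators they were 793, 633, 811 and 767 against 489, 705 and 614 CPM and for the receptors 23.6, 28.6, 42.9 and 58.7 against 26.2, 44.4 and 30.9 CPM.

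Markers of other cells that lie in or near the muscle coat were set beside the contractile genes. For interstitial cells of Cajal, the pacemaker cells of the gut wall, 6 of 6 genes were tested, 0 had an unadjusted p-value under 0.05 in edgeR, and their summed level was 31.8, 26.6, 22.5 and 24.7 CPM in the normal cys and 36.0, 35.2 and 26.9 CPM in the low cys libraries, led by Slitrk6. X26SI4 was close to X23SI4 in this sum, Etv1 had the smallest p of the higher genes (log2 fold change 0.91, SE 0.48), and no gene had a lower estimate. At least 2 of these 6 genes have other sources in the mucosa, Kit in mast cells and Gja1 in fibroblasts. For enteric neurons, of which 3 of 14 markers were tested, the sums were 12.3, 9.08, 10.8 and 14.9 CPM and 13.7, 7.87 and 10.3 CPM, of which Ret supplied 73.0%. X26SI4 was the lowest of all mice in this sum and the highest for 4 of the 14 genes (Elavl4, Uchl1, Nos1 and Stmn2), none with more than 9 counts in a library. Elavl4, a neuron marker, had at most 4 counts in a library, and Chat was the 1 gene of 3 that was lower at an unadjusted p-value under 0.05 in edgeR, as 2.83% of all genes tested were (log2 fold change -1.17, SE 0.47). Without X26SI4 its log2 fold change was -1.20 (SE 0.59) and no longer under that threshold. With all libraries no tested neuron gene had a higher estimate. Ret changed sign without X26SI4, with a log2 fold change of 0.114 against -0.163 with all libraries. Chat is also a gene of epithelial tuft cells, so at least 1 of the 14 has another source. For enteric glia 2 of 6 markers were tested with 0 under that threshold, Sox10 was at 0 in all libraries, S100b and Gfap had at most 1 count, and the sum of 701, 492, 535 and 959 CPM and 664, 657 and 577 CPM was almost wholly Erbb3, the 1 of the 6 genes that the epithelium is known to express. Erbb3 had a log2 fold change of -0.09 (SE 0.23). For the mesothelium, the outer lining of the gut, 3 of 6 markers were tested with 0 under the threshold. Its sum was 1313, 1838, 999 and 967 CPM and 1537, 1489.9 and 1375 CPM, of which Krt19, an epithelial keratin too and so the 1 of the 6 with another source, supplied 99.9%, and X26SI4 was the highest library for 0 of the 6 genes. Krt19 had the smallest p of the higher (log2 fold change 0.20, SE 0.23) and Upk3b of the lower genes (-0.03, SE 0.83).

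Among the cells of the lamina propria, pericyte markers (5 of 8 tested) summed to 13.6, 14.7, 15.4 and 32.1 CPM in the normal cys and 22.4, 24.1 and 18.6 CPM in the low cys libraries, led by Pdgfrb, with Higd1b at 0 in all libraries. In this sum X1SI4 was the highest and not the lowest, and 1 of the 5, Rgs5, was higher at an unadjusted p-value under 0.05 in edgeR, as 2.66% of all genes tested were (log2 fold change 1.77, SE 0.75, and no longer under it at 0.56 without X26SI4), while Kcnj8 had the smallest p of the lower genes (log2 fold change -0.52, SE 0.65). At least 3 of the 8 pericyte genes, Rgs5, Notch3 and Pdgfrb, are also expressed by vascular smooth muscle. For fibroblasts 9 of 13 markers were tested, 3 of them (Dcn, Col3a1 and Col6a1) were higher at an unadjusted p-value under 0.05 (2.66% of all genes tested), also without X26SI4, and 0 lower, and the median log2 fold change was 0.83, or 0.95 without X26SI4. Dcn, a collagen-binding proteoglycan with the smallest p of the list, had 1.36, 1.18, 1.73 and 2.20 CPM in the normal cys and 3.84, 6.87 and 3.61 CPM in the low cys libraries. DESeq2 called Dcn as 1 of its 16 genes (adjusted p = 0.0339, Benjamini-Hochberg, log2 fold change 1.55, with 3 of 3 low cys libraries above the normal cys range), while edgeR did not (adjusted p = 0.794, Benjamini-Hochberg, log2 fold change 1.55). The diets did not overlap for Dcn, Col3a1 and Col6a1, and they did for the other 6 fibroblast genes tested, where 3.32% of all genes tested had all low cys libraries above. The summed fibroblast level of 71.0, 97.4, 178 and 127 CPM and 57.6, 79.8 and 126 CPM was dominated by Fbln1 (85.1%), which had the smallest p of the lower genes (log2 fold change -0.75, SE 0.42). X26SI4 was the highest library for 4 of the 9 fibroblast genes tested, and for 8.53% of all genes tested. Endothelial markers (8 of 9 tested, 0 at an unadjusted p-value under 0.05) summed to 14.0, 10.8, 11.7 and 11.6 CPM and 20.1, 15.5 and 16.2 CPM, with X23SI4 the highest. They were led by Lyve1, which also had the smallest p of the higher genes (log2 fold change 0.55, SE 0.27, and 0.71 without X26SI4, where it alone was under that threshold), and no gene had a lower estimate. Pericytes, fibroblasts and endothelium are themselves cells of the scraped mucosa. Whether the amount of any of these cells took part in the high values of X26SI4 was not tested.

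Of 14 striated muscle markers, 3 were tested with 0 at an unadjusted p-value under 0.05, and Myh1, Myh2, Myh4 and Myh6 were at 0 in all libraries. Their sum was 9.51, 6.59, 8.31 and 12.3 CPM in the normal cys and 3.75, 9.999 and 11.4 CPM in the low cys libraries, led by Acta1, which per kilobase had 3.09 times the level of Acta2 (39 to 185 counts). Tnnt2 had the smallest p of the higher genes (log2 fold change 0.85, SE 0.43) and Mylpf of the lower genes (-0.66, SE 0.37). Adipocyte markers (3 of 5 tested, 0 at that threshold) summed to 38.2, 38.1, 61.1 and 71.7 CPM and 25.6, 42.9 and 35.6 CPM, led by Cidec, the 1 of the 5 known as an enterocyte gene too, which had the smallest p of the lower genes (log2 fold change -0.67, and -0.85 without X26SI4, where it was under the threshold), while Cfd had that of the higher genes (log2 fold change 0.81, SE 0.62). Epithelial markers, all 10 tested, made up by far the largest sum, 35355, 39293, 51482 and 55848 CPM in the normal cys and 21951, 34761 and 34613 CPM in the low cys libraries, led by Fabp2. X23SI4 was the lowest in this sum, and X26SI4 and X10SI4 were slightly below the lowest normal cys library. Of the 10 epithelial genes 2, Apoa1 and Krt20, were lower at an unadjusted p-value under 0.05 (2.83% of all genes tested), with the smallest p for Apoa1 (log2 fold change -0.79, SE 0.29) and, of the higher genes, for Slc10a2 (0.20, SE 0.25). Without X26SI4 the count was also 2, now of Vil1 (-0.51) and Fabp6 (-0.68), while Apoa1 (-0.77) and Krt20 (-0.41 with and -0.44 without that library) kept similar log2 fold changes. Epcam alone, a surface protein of all epithelial cells, had 878 times the level of Acta2 per kilobase.

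**Figure D3:**
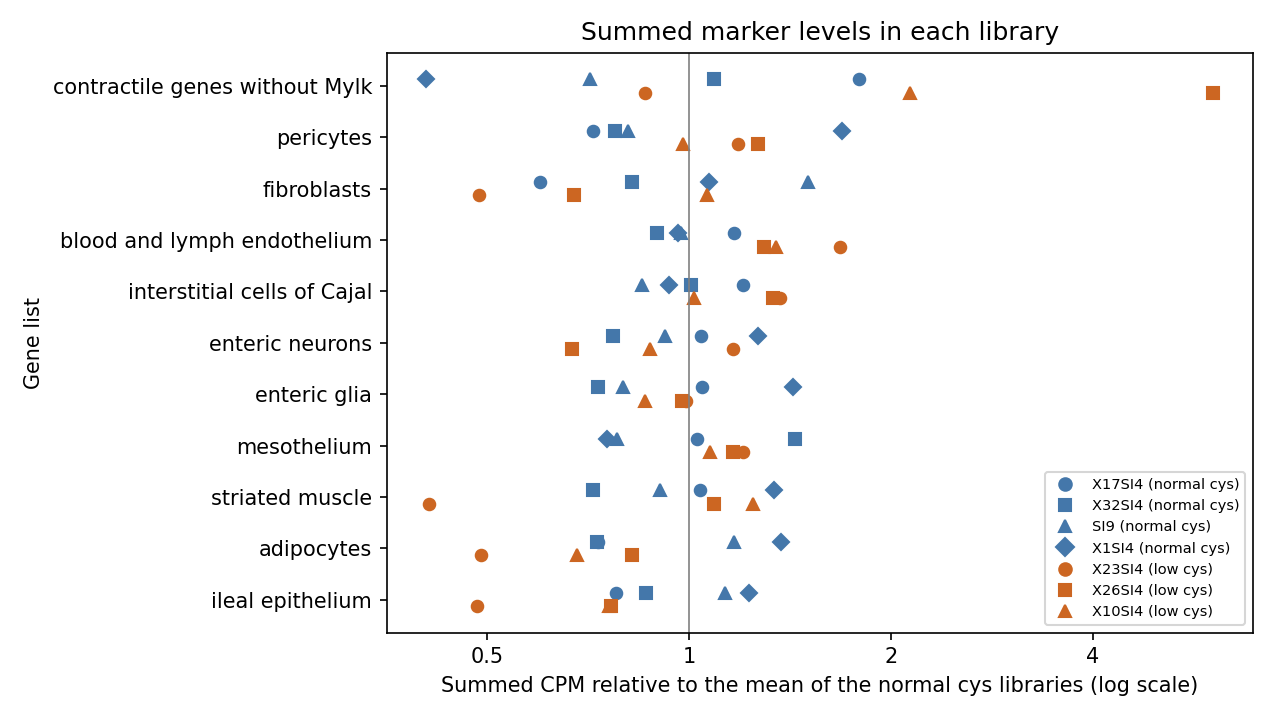
Summed CPM of the contractile genes without Mylk and of the markers of other cell types in each library, divided by the mean of the 4 normal cys libraries, on a log scale with 1 symbol per mouse. X26SI4 (orange square) lies at 6.04 for the contractile genes without Mylk and at 1.37 with Mylk kept. The most abundant gene was left out of no other list. Single genes supply most of some of those sums (Krt19 99.9%, Erbb3 99.9%, Cidec 93.7% and Fbln1 85.1%). The contractile row is thus not treated like the others, and its distance from them depends on this choice.

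Because the contractile genes shared an order of mice, their promoters were searched for the CArG box, the 10-base site bound by Srf, which reads CC, 6 bases of A or T and GG and is the same on both strands. RefSeq (GRCm38.p6) promoters were given for 7 of the 10 genes (Acta2, Cnn1, Des, Lmod1, Myl9, Mylk and Synm) and not for Actg2, Myh11 and Tagln. The search covered 250 bases before the RefSeq start. Of these, 206 for Myl9 and 244 for Lmod1 lie before the deposited gene start, and those of Mylk lie inside the deposited gene and include 29 exonic bases. Of the 7 genes 1, Myl9, held the exact box, which 1.62% of all 27025 genes with a promoter did. When 1 of the 6 inner bases was allowed to be G or C, 3 of the 7 (Acta2, Myl9 and Synm) held a match, against 9.78% of all genes. The matches lay 84 and 34 bases before the RefSeq start of Acta2, 161 and 99 before that of Myl9 and 239 before that of Synm. A match is a string of letters, and no binding was measured. The 3 sequences are shown 5′ to 3′ because they carry these matches, which are in capitals, and each ends where the first exon of the gene begins or earlier, at chr19:34255374-34255623 (minus strand), chr2:156775214-156775419 (plus strand) and chr7:67759743-67759992 (minus strand).
Acta2: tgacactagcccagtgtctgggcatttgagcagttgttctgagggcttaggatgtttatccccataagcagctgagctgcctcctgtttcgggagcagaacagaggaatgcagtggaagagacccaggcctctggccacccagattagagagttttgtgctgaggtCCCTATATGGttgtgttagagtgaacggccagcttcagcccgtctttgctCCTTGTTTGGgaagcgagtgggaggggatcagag
Myl9: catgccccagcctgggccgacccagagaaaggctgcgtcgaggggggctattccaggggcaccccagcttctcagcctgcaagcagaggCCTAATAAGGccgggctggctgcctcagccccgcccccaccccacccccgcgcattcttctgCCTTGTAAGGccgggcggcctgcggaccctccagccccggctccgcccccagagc
Synm: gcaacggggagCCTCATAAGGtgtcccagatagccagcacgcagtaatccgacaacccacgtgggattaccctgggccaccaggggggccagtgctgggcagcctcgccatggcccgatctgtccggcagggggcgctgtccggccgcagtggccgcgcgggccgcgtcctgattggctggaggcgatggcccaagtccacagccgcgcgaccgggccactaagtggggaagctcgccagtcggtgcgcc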

How the data were processed

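Ileal scrapings of 7 mice had been sequenced as stranded polyA libraries with 50-base reads. Per the submitters' processing notes, reads were trimmed with Trim Galore 0.6.5, aligned with STAR 2.73a to GRCm38 and counted per gene with featureCounts on exons of Ensembl release 70, and the deposited values are these raw counts. The strand setting of the counting and its handling of reads with several alignments are not given in the sources used here, so that counts of genes overlapping on opposite strands are uncertain. Read counts were not changed before the tests, and CPM is the count relative to the TMM-scaled library total. Library totals ranged from 14888760 to 22412703.

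Genes were filtered with filterByExpr (minimum count 10, minimum total 15), which kept 14869 of 38293. The diets were compared with the quasi-likelihood F-test of edgeR 4.0.16 (limma 3.58.1, R 4.3.3; robust fit, Benjamini-Hochberg adjustment over all genes tested), with no other variable in the model. Log2 CPM for correlations and SD used a prior count of 2. The SE is that of the log2 fold change. Alternatives were DESeq2 1.42.0, limma-voom, DESeq2 size factors, total counts without TMM factors, no filter, and each library left out in turn. The median log2 fold change and the summed CPM without Mylk, and the spread without each library, were chosen after seeing the data. The limit for a count of 0 is 3 counts and covers counting error only. The scripts were tested on simulated data with known fold changes.

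The members and lists were chosen with earlier results of these data known. The lists were filament proteins, control of contraction, dense body and membrane, transcription regulators, contractile receptors, non-muscle counterparts, interstitial cells of Cajal, enteric neurons, enteric glia, mesothelium, pericytes, fibroblasts, blood and lymph endothelium, striated muscle, adipocytes and ileal epithelium. Named are the 10 members, in each list the most abundant gene per kilobase of exon, the tested genes with the smallest p in each direction and any with an adjusted p under 0.05, the 10 other genes most correlated with the members, and Srf, Myocd, Tpm2, Smtn, Vcl and Flna. Other genes with values (among them Actg1, Myh9, Myh14, Chrm2, Elavl4, Uchl1, Nos1, Stmn2, S100b, Gfap, Col3a1, Col6a1, Krt20, Vil1, Fabp6, Ppp1r12a and Epcam) were chosen after their values were seen. Some results that this rule names are not reported here. Shared 50-base stretches were counted in GENCODE M21 transcripts. Promoters are from RefSeq for GRCm38.p6.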

Additional observations from a re-analysis of the deposited data

Results flagged for a closer look

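In the 4 normal cys libraries, a library was singled out when its gap to the nearest other library took up most of the range of all 4, a test that chance alone passes in about 1 of 20 groups. Of 27 values examined, 3 were singled out, where 1.35 are due to chance. For log2 CPM of Lmod1 the gap was 0.950 of the range, with SI9 at 5 counts and X17SI4, X32SI4 and X1SI4 at 1 count each. For the summed CPM of the filament proteins it was 0.833 of the range, with X17SI4 at 1141 CPM below X32SI4, SI9 and X1SI4. For the summed CPM of the pericyte markers it was 0.904 of the range, with X1SI4 at 32.1 CPM above the other 3 libraries.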

How the results depend on the processing

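No contractile gene had an adjusted p-value under 0.05 in any of the 12 alternatives. The number with an unadjusted p-value under 0.05, 3 in edgeR (2.66% of all genes were higher), was 5 with DESeq2 (2%), 1 with limma-voom (3.5%), 1 without the filter (2.38%), 3 with DESeq2 size factors (2.46%) and 4 with total counts (6.13%). It ranged from 0 to 7 of the same 8 genes when single libraries were left out. Without X23SI4 Synm made this 8, but Synm passed the filter only there. The number with all low cys libraries above all normal cys libraries ranged from 0 to 7 when single libraries were left out and was 0 with DESeq2 size factors (3.18% of all genes tested) and with total counts (7.2%). The median log2 fold change, 1.56, ranged from 0.46 to 2.14 with single libraries left out, from 1.08 to 1.65 under the other tools, scalings and filter, and was 1.67 without Mylk, an alternative chosen after seeing the data. The summed CPM difference of 16.9 ranged from -8.96 to 40.1 with single libraries left out and was 15.9 with DESeq2 size factors, 36.5 with total counts and 15.9 without Mylk. The median within-diet SD, 1.16, ranged from 0.94 to 1.29 with single libraries left out. Of 96 alternative fold changes of single genes, 91 kept their direction and 5 did not. All 5 were of Mylk, with -0.004 for DESeq2, -0.010 without the filter, and from -0.103 to 0.120 with single libraries left out (-0.021 without X32SI4, -0.018 without SI9 and -0.103 without X26SI4), and the cause was not tested. Total counts without TMM factors moved the median log2 fold change of all genes tested to 0.15, with 911 genes higher and 126 lower at an unadjusted p-value under 0.05, against 396 and 421 with them.

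No paired analysis was possible because the labels give the mice no replicate numbers. With 3 and 4 mice and counts mostly under 100 per library, the estimates of the low-level genes are imprecise. Lmod1 and Synm, with fewer than 30 counts in each library, did not pass the filter with all 7 libraries. The amount of muscle in each scraping was not measured. Counts per gene do not separate the products of Mylk.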
